A study of Mus musculus with 18 samples.

Results

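The exocyst is a complex of 8 different subunits that tethers secretory vesicles to the plasma membrane before they fuse with it. The genes Exoc1 to Exoc8 that encode these subunits were followed through liver RNA of 4 groups of female mice aged 6 to 8 weeks. All 8 genes were found among the 17097 genes measured, with 16 of 45037 probe sets, the sets of short probes that each report 1 transcript region. The subunits were taken by name, but the complex was selected on a value of these arrays: the lower level of Exoc4 after ACAT2 ASO. Values of the subunits in that comparison are therefore given as a description, without a p-value, and the transgenic comparison, which shares no array with it, was tested.

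The transgenic model held 5 samples from C57BL/6 mice labelled as liver-transgenic for NPC1L1, a cholesterol transporter, and 5 wild-type samples of the same strain. The ASO model held 4 samples from mice given an antisense oligonucleotide (ASO, a short synthetic strand that binds a chosen transcript) directed at ACAT2, a cholesterol-esterifying enzyme, and 4 samples given a non-targeting control ASO, all labelled C57BL/6N. Both models were chosen by the submitters as mice with a raised loss of cholesterol through the intestinal wall, a route that does not use bile. The sources used here do not state the promoter of the transgene, the dose or duration of the ASOs, or whether each sample is a separate animal. The RNA was of whole liver, so fewer cells of a type and less RNA per cell cannot be told apart.

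In textbook accounts the exocyst is built from a pair of subassemblies of 4 subunits, one of Exoc1, Exoc2, Exoc3 and Exoc4 and one of Exoc5, Exoc6, Exoc7 and Exoc8. Exoc1 and Exoc7 bind phosphoinositides of the plasma membrane, Exoc2 and Exoc8 bind Ral GTPases, and Exoc6 binds Rab GTPases of recycling vesicles. Hepatocytes are polarised cells that send different vesicles to the membranes facing blood and bile.

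The promoter windows of Exoc4 and Exoc7 are shown because these were the subunits whose levels were called lower after ACAT2 ASO. That contrast led to the choice of the complex, and the call of Exoc7 depended on single arrays. The windows are RefSeq sequence of build GRCm38.p6, from 250 bases before to 50 bases after a transcript start, written 5′ to 3′ on the gene's strand. The window of Exoc4 lies at chr6:33248878-33249177 on the + strand and that of Exoc7 at chr11:116306685-116306984 on the - strand. Capitals mark matches on either strand to AAGATGGC, the core of the YY1 motif, or to CGGAAG, the core of the ETS motif.
Exoc4: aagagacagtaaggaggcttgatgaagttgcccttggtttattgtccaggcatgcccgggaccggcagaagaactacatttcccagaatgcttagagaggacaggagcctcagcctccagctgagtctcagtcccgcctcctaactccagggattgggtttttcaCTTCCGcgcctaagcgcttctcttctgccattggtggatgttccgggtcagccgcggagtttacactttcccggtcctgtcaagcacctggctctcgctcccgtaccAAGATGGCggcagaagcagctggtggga
Exoc7: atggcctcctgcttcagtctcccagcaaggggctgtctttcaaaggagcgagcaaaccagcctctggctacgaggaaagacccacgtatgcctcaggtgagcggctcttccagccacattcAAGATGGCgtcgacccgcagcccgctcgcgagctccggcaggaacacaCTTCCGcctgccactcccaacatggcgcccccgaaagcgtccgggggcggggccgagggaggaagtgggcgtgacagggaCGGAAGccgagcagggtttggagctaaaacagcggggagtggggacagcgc

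Windows were held for all 8 genes, 12 in all, with a GC content between 43.3% and 74.0%. AAGATGGC was found in the windows of 2 of the 8 genes, Exoc4 and Exoc7, and in those of 4.15% of 13514 array genes with a window. It began at base 273 of the Exoc4 window and at base 122 of the Exoc7 window, counted from the 5′ end. CGGAAG was found for 7 of the 8 genes, against 27.3% of array genes, and Exoc6 was the gene without it. GGGCGG, the GC box, was found for 5 genes (57.4% of array genes), CCAAT for 2 (42.3%), the CRE core TGACG for 3 (29.9%) and the E-box CACGTG for 1 (10.2%). All were searched on both strands, and GGGCGG and CGGAAG can share the letters CGG. The motifs were chosen after the sequences had been read, and a match describes letters and not binding.

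The arrays read as liver. Hepatocyte markers averaged between 12.39 and 12.78 on the log2 scale on all 18 arrays. Of 37 measured marker genes of hepatocytes and 6 other cell types limma called 0 in either comparison, with 3 at an unadjusted p under 0.05 in transgenic liver and 4 after ACAT2 ASO. Over all 17097 genes 1859 were under that unadjusted p in transgenic liver and 2276 after ACAT2 ASO. Mouse Npc1l1 lay between 3.61 and 4.36 on all arrays and differed by -0.15 in transgenic liver (limma adjusted p = 0.604), and whether its probe set matches the transgene was not analysed here. The transcript aimed at by the ASO was not analysed here either. Wild type 2, ACAT2 ASO 1 and control ASO 4 stood apart from the rest of their groups, with a root mean square difference of 0.256 to 0.310 over all genes, against 0.153 to 0.209 for the other 15 arrays. The mean of 6 Kupffer cell markers was 9.77, 9.43 and 8.99 on these arrays and between 7.42 and 8.65 on the others. The medians of all probe sets lay near 4.6 in the transgenic model and near 4.4 in the ASO model, so levels are compared within a model only.

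Exoc4 encodes a subunit of the core of the complex and is the member with the most probe sets, 5. On its brightest probe set, 1422684_PM_a_at, the control ASO arrays 1 to 4 read 7.30, 7.77, 7.21 and 7.41 on the log2 scale, and the ACAT2 ASO arrays 1 to 4 read 6.06, 5.80, 5.38 and 5.09. Every ACAT2 ASO array lay more than a log2 unit below the lowest control array, and the groups did not overlap. The means were 7.42 ± 0.25 and 5.58 ± 0.43 (SD, n = 4), a log2 change of -1.84 with a 95% interval of -2.19 to -1.49. On the linear scale this left 27.9% of the control level (95% interval 21.9% to 35.7%), and the 4 arrays singly lay at 39.0%, 32.6%, 24.2% and 19.8% of the control mean. Among 17097 genes this was the second lowest change.

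The probe sets of Exoc4 did not all read the same. On 1422685_PM_at the control ASO arrays read 6.40, 6.67, 6.21 and 6.12 and the ACAT2 ASO arrays 4.69, 4.83, 4.51 and 4.29, a log2 change of -1.77 (95% interval -2.05 to -1.49). On 1422686_PM_s_at the control ASO arrays read 6.90, 6.95, 6.81 and 6.94 and the ACAT2 ASO arrays 5.93, 5.86, 5.79 and 5.66, a log2 change of -1.09 (95% interval -1.29 to -0.89). ACAT2 ASO 4 was the lowest array and ACAT2 ASO 3 the next lowest on all 3 of these probe sets, and on none of them did the groups overlap. On 1431062_PM_a_at, a dimmer probe set, the control ASO arrays read 5.09, 5.12, 4.93 and 4.97 and the ACAT2 ASO arrays 4.97, 4.98, 4.85 and 4.74. There the groups overlapped, and the log2 change was -0.14 (95% interval -0.32 to 0.03). The fifth, 1453977_PM_at, lay between 3.25 and 3.51 on all 18 arrays, above only 9.8% of probe sets by its mean, so it carries little on the level of Exoc4. The log2 change there was -0.07 (95% interval -0.16 to 0.03), and which transcripts each probe set matches was not analysed here.

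**Figure D1:**
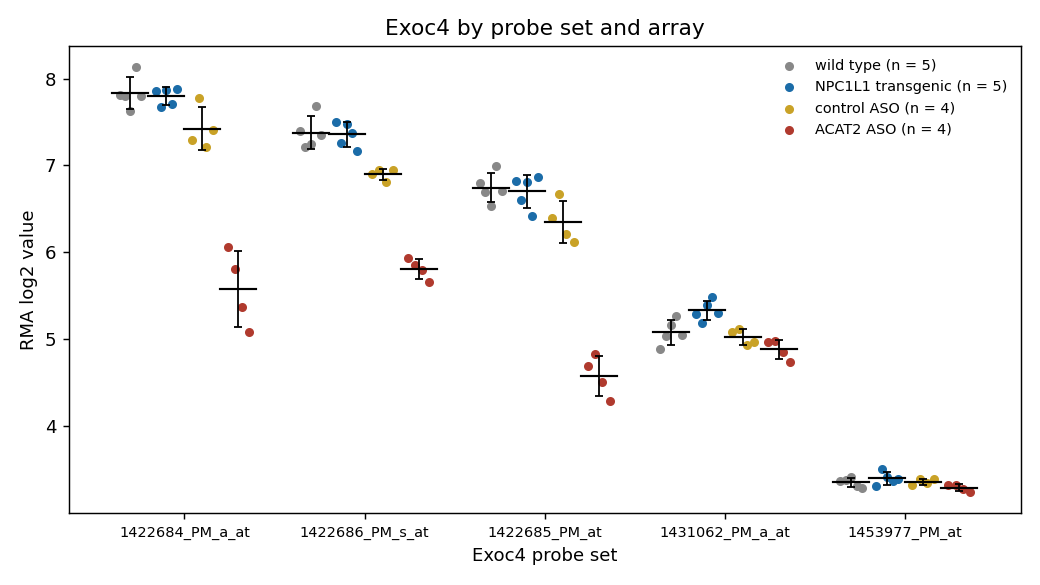
RMA log2 values (vertical axis) of the 5 Exoc4 probe sets (horizontal axis) on each of 18 arrays, coloured by group, with the group mean and SD in black. The ACAT2 ASO arrays lie apart from the control ASO arrays on the 3 brightest probe sets, with changes of -1.84, -1.09 and -1.77, and overlap them on the other two.

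In transgenic liver Exoc4 showed no comparable difference. The wild-type arrays 1 to 5 read 7.81, 7.80, 7.63, 8.13 and 7.80 on 1422684_PM_a_at, and the transgenic arrays 1 to 5 read 7.86, 7.67, 7.87, 7.71 and 7.88. The groups overlapped throughout, with means of 7.83 ± 0.18 and 7.80 ± 0.10 (SD, n = 5). The log2 change was -0.04 ± 0.15 (SE, limma adjusted p = 0.966), with a 95% interval of -0.35 to 0.28. That interval spans 78.4% to 121% of the wild-type level. On the probe sets 1422685_PM_at and 1422686_PM_s_at the changes were -0.04 and -0.02 (limma adjusted p = 0.945 and 0.958). On the dimmer 1431062_PM_a_at the wild-type arrays read 4.89, 5.04, 5.17, 5.27 and 5.06, and the transgenic arrays 5.29, 5.19, 5.39, 5.48 and 5.31. The 4 highest arrays were transgenic, the groups overlapped, and the difference of 0.25 ± 0.07 (SE, unadjusted p = 0.00299 by limma) was not called over all probe sets (limma adjusted p = 0.219). The difference between the effect of the ACAT2 ASO and that of the transgene on 1422684_PM_a_at was -1.80 (95% interval -2.28 to -1.33).

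Exoc7 binds membrane lipids and in other cells helps direct vesicles to their site of fusion. It was the other subunit that limma called lower after ACAT2 ASO, in the contrast that led to the choice of the complex. This call is a description. It held in 5 of 10 alternative settings and in 8 of 18 fits without single arrays. Its only probe set, 1434865_PM_a_at, read 7.41, 7.43, 7.23 and 7.32 on the control ASO arrays and 7.07, 7.12, 7.07 and 6.91 on the ACAT2 ASO arrays. The groups did not overlap, but the highest ACAT2 ASO array, at 7.12, lay close to the lowest control array, at 7.23. The means were 7.35 ± 0.09 and 7.04 ± 0.09 (SD, n = 4), a log2 change of -0.31 (95% interval -0.45 to -0.17), which left 80.9% of the control level. On the transgenic arrays Exoc7 read 7.24, 7.43, 7.50, 7.51 and 7.39, and on the wild-type arrays 7.39, 7.22, 7.34, 7.22 and 7.31. There the groups overlapped and the difference had the opposite sign, 0.12 ± 0.06 (SE, limma adjusted p = 0.487). The difference between the effects was -0.43 (95% interval -0.61 to -0.24).

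The partners of Exoc4 in its own subassembly differed less after ACAT2 ASO than its 3 brightest probe sets did. Its dimmer probe sets 1431062_PM_a_at and 1453977_PM_at, at -0.14 and -0.07, lay within the range of these partners. Exoc2, a Ral effector, read 6.12, 6.14, 6.16 and 6.38 on the control ASO arrays and 6.22, 6.13, 5.78 and 5.92 on the ACAT2 ASO arrays, so that 2 arrays were low and 2 lay among the controls. Its log2 change was -0.19 (95% interval -0.37 to -0.0048). Exoc1, which contacts membrane lipids, lay between 6.00 and 6.42 in control ASO and between 5.94 and 6.19 in ACAT2 ASO liver on its brighter probe set, a change of -0.14 (95% interval -0.34 to 0.07). Its dimmer probe set, 1446105_PM_at, had a change of the opposite sign, 0.11, with control ASO arrays between 4.06 and 4.11 and ACAT2 ASO arrays between 4.19 and 4.21, which did not overlap. Exoc3, whose yeast counterpart binds fusion proteins, averaged 6.09 ± 0.16 and 6.09 ± 0.24 (SD, n = 4), a change of 0.00024 (95% interval -0.23 to 0.23).

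In the other subassembly the groups overlapped for every subunit except Exoc7. The share of all probe sets without overlap is not given for either comparison, so overlap and its lack are descriptions throughout. Exoc5, which joins Exoc6 to the complex, averaged 7.20 ± 0.16 after control ASO and 7.23 ± 0.20 after ACAT2 ASO (SD, n = 4), a log2 change of 0.03 (95% interval -0.17 to 0.23). Exoc6, the Rab-binding subunit, had changes of 0.04, -0.12 and -0.24 on its 3 probe sets, fitted singly, with 95% intervals from -0.11 to 0.19, from -0.32 to 0.08 and from -0.47 to -0.0024. The probe sets of Exoc6 thus differed in sign, and the brightest, 1424231_PM_s_at, had the smallest change. Exoc8, a Ral effector, read 5.24, 5.57, 5.37 and 5.22 on the control ASO arrays and 5.65, 5.47, 5.24 and 5.62 on the ACAT2 ASO arrays, a change of 0.15 (95% interval -0.09 to 0.38). Its dimmer probe set, 1458839_PM_at, had a change of -0.05. The complex was chosen on Exoc4 in this contrast, so intervals are set side by side as a description only. The intervals of Exoc5, Exoc6 and Exoc8 do not reach those of the 3 brightest Exoc4 probe sets. They overlap those of the dimmer Exoc4 probe sets 1431062_PM_a_at and 1453977_PM_at. The intervals of Exoc5, Exoc6 and Exoc8 hold changes from -0.47 to 0.38 on the log2 scale.

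Limma called 2 of the 8 genes after ACAT2 ASO, Exoc4 and Exoc7, both lower, against 0.597% of all genes, and 4 of the 16 probe sets, 3 of Exoc4 and that of Exoc7, against 0.486% of all probe sets. This contrast led to the choice of the complex, so nothing is read from these counts. The median change was -0.07 over the 8 genes and 0.00024 over the 7 partners of Exoc4, beside -0.00056 over all genes. The call of Exoc7 ended when any of 10 single arrays was left out, namely ACAT2 ASO 1, 3 or 4, control ASO 1, 2 or 4, wild type 3 or 5, or transgenic 2 or 5, and its change then lay between -0.34 and -0.26 over all such fits. Without the 3 arrays that stood apart, which include the ACAT2 ASO array with the highest Exoc4 level, the change of Exoc4 was -2.00. That of Exoc7 was then -0.32 and was not called.

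**Figure D2:**
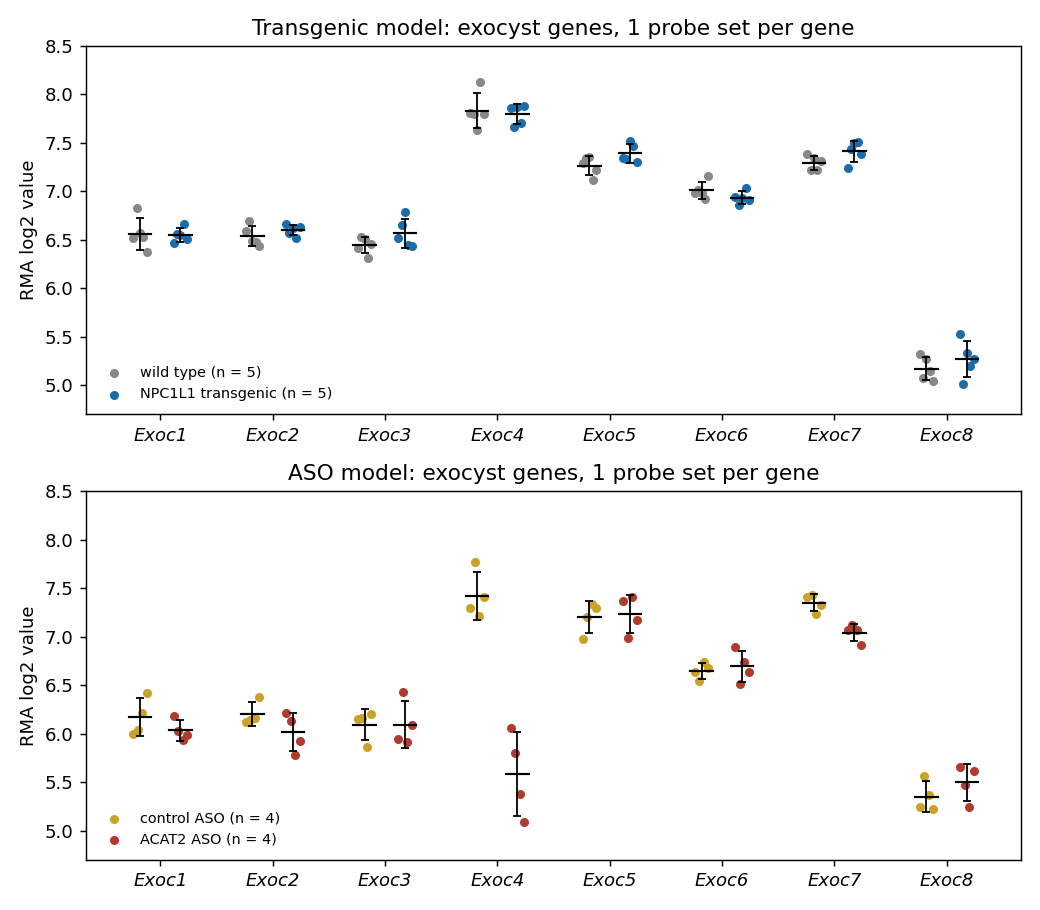
RMA log2 values (vertical axis) of the 8 exocyst genes, 1 probe set per gene, on each array of the transgenic model (top) and the ASO model (bottom), with the group mean and SD in black. Exoc4 is the gene whose ACAT2 ASO arrays, 5.09 to 6.06, lie far below their controls, and the transgenic arrays of all 8 genes overlap wild type.

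In transgenic liver no subunit was called. Limma called 0 of the 8 genes, against 0.228% of all genes, with 0 at an unadjusted p under 0.05, and 0 of the 16 probe sets, against 0.173% of all probe sets, with 1 at an unadjusted p under 0.05, the Exoc4 probe set 1431062_PM_a_at. The 8 changes lay between -0.08 for Exoc6 and 0.13 for Exoc5, with a median of 0.08 beside 0.0058 over all genes, and 5 of them lay above 0. Exoc3 differed by 0.12 ± 0.10, Exoc5 by 0.13 ± 0.08, Exoc8 by 0.10 ± 0.10 and Exoc2 by 0.06 ± 0.08 (SE, limma adjusted p between 0.639 and 0.831). Exoc6 differed by -0.08 ± 0.06 and Exoc1 by -0.02 ± 0.09 (SE, limma adjusted p = 0.737 and 0.976). The signs of the small Exoc1, Exoc4 and Exoc6 differences turned when the probe sets of a gene were averaged. The wild-type and transgenic arrays overlapped on all 16 probe sets. Without the share over all probe sets, nothing about the exocyst is read from this. The 95% intervals of the 8 genes reached no further than 0.35 from 0 on the log2 scale in either direction, so larger changes lay outside them.

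**Figure D3:**
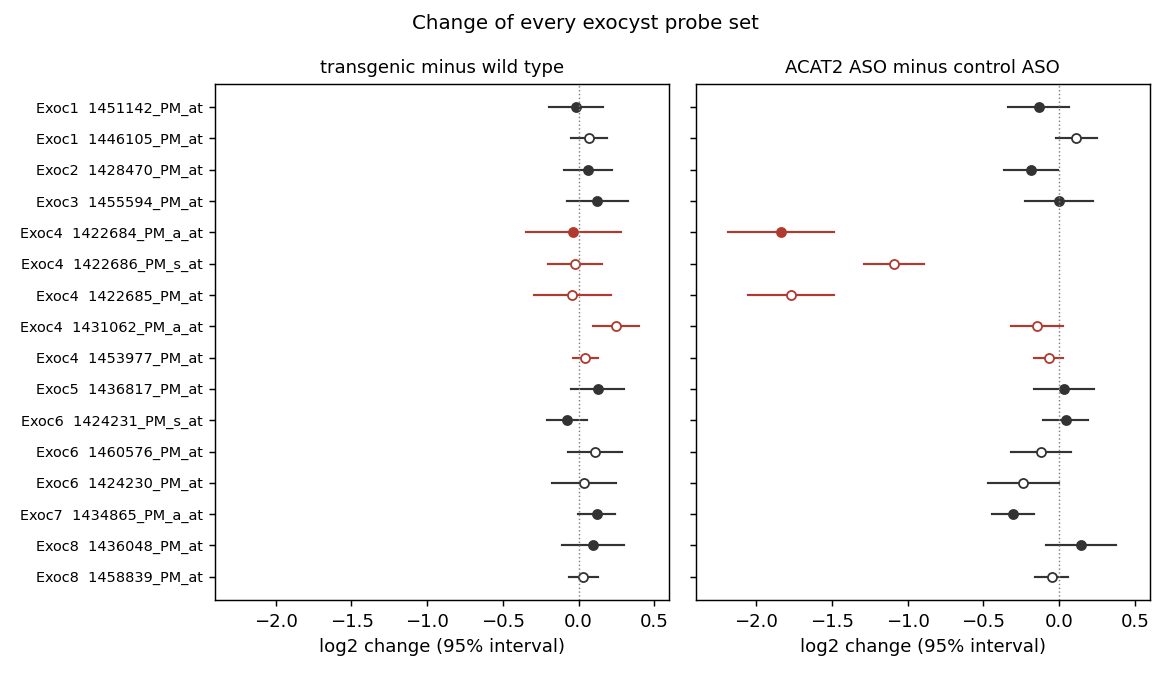
Log2 change with its 95% interval (horizontal axis) of each of the 16 exocyst probe sets (vertical axis) in transgenic liver (left) and after ACAT2 ASO (right), with Exoc4 in red and filled points for the brightest probe set of a gene. The 3 Exoc4 probe sets with changes between -1.84 and -1.09 stand away from 0 on the right, and all points on the left lie between -0.08 and 0.25.

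Exoc4 was set against its 7 partners on each array, with every gene taken as its deviation from the mean of the control group of its model. After ACAT2 ASO the partner mean deviated by 0.04, -0.05, -0.13 and -0.10 on arrays 1 to 4, while Exoc4 deviated by -1.36, -1.62, -2.04 and -2.34. The partner mean was lowest on arrays 3 and 4, where Exoc4 was lowest too. Exoc4 minus partners averaged -1.78 ± 0.37 (SD, n = 4) on the ACAT2 ASO arrays, which lay between -2.24 and -1.40. With the mean of each gene's probe sets in place of the brightest it was -0.91. The controls, centred on 0 by construction, had an SD of 0.23 and lay between -0.20 and 0.34. In transgenic liver it averaged -0.10 ± 0.10, between -0.20 and 0.03, and the wild-type arrays lay between -0.23 and 0.38 with an SD of 0.23 (n = 5). These ranges overlapped. The partner mean itself deviated by -0.06 ± 0.08 after ACAT2 ASO (SD, n = 4) and by 0.06 ± 0.05 in transgenic liver (SD, n = 5).

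**Figure D4:**
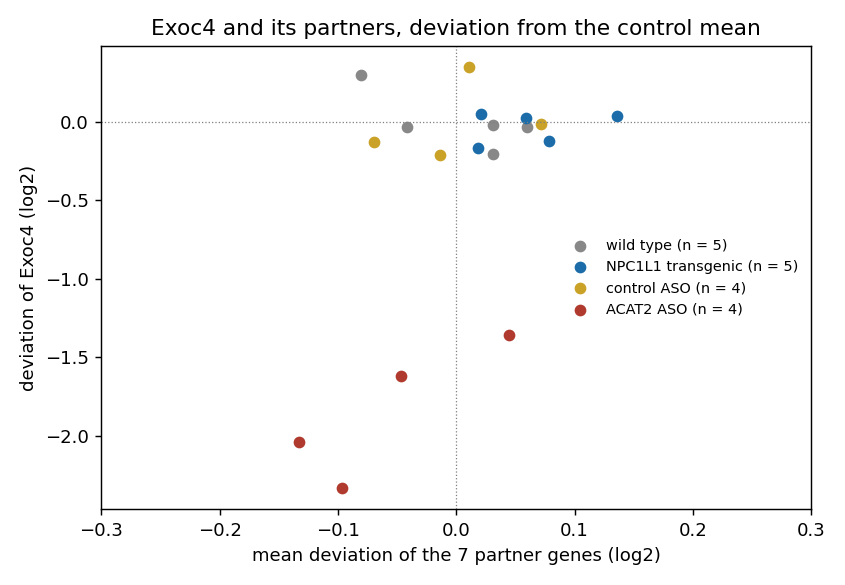
Deviation of Exoc4 (vertical axis) against the mean deviation of its 7 partner genes (horizontal axis), both on the log2 scale from the mean of the control group of the model, 1 point per array. The 4 ACAT2 ASO arrays lie at -1.36 to -2.34 for Exoc4, while the partner mean of every array stays between -0.13 and 0.14.

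The genes beside Exoc4 on its chromosome were measured too. In order of gene start in the RefSeq table of GRCm38.p6, the 3 named genes before it with a probe set were Plxna4, Plxna4os1 and Chchd3, and the 3 after it Lrguk, Slc35b4 and Akr1b8. After ACAT2 ASO Chchd3, a gene of the mitochondrial inner membrane and the nearest before Exoc4, read 9.42 ± 0.20 against 9.53 ± 0.12 (SD, n = 4), a log2 difference of -0.11 (95% interval -0.30 to 0.08, limma adjusted p = 0.651). Slc35b4, a nucleotide sugar transporter gene, differed by 0.05 (limma adjusted p = 0.824) and Akr1b8, an aldo-keto reductase gene, by -0.22 (limma adjusted p = 0.287). Plxna4, Plxna4os1 and Lrguk differed by 0.03, -0.07 and 0.03. Plxna4os1 and Lrguk were dim, with means of 3.74 and 3.35 over all arrays, so they carry little on a fall. Limma called 0 of these 6 genes in either comparison, with 1 at an unadjusted p under 0.05, Akr1b8 after ACAT2 ASO, and the transgenic differences lay between -0.06 for Plxna4 and 0.08 for Chchd3.

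**Figure D5:**
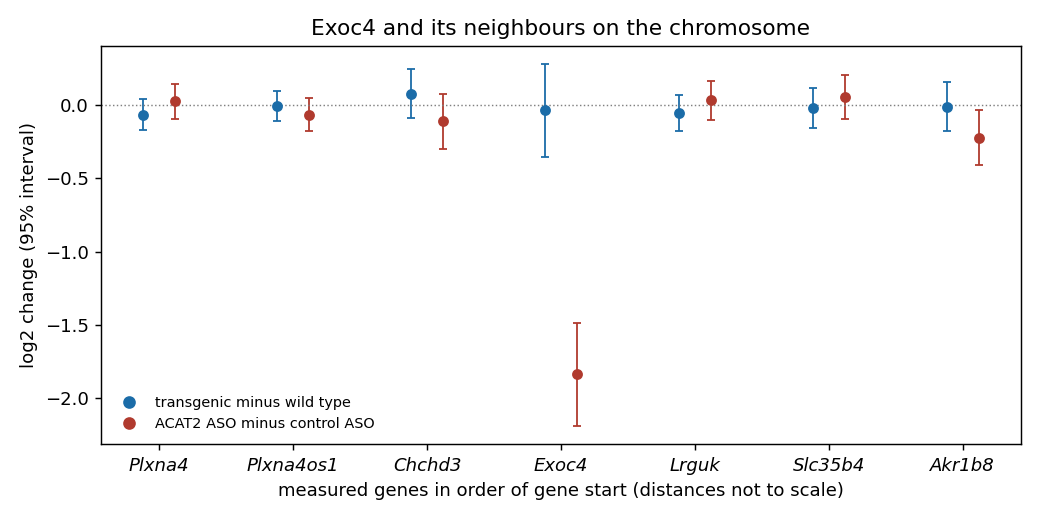
Log2 change with its 95% interval (vertical axis) of Exoc4 and of the 3 measured named genes on either side of it in order of gene start (horizontal axis), in transgenic liver (blue) and after ACAT2 ASO (red). Exoc4 at -1.84 is the gene furthest from 0, and its neighbours lie between -0.22 and 0.08. The interval of Akr1b8 after ACAT2 ASO, -0.41 to -0.03, also lies below 0.

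Other genes had a course over the arrays more like that of Exoc4 than its partners had. Likeness was the mean absolute difference of the deviations over 18 arrays, for which smaller values mean a closer course. The fall of Exoc4 after ACAT2 ASO, on which the complex was chosen, enters this measure. Of 17096 genes the closest were Tpd52l1 (0.227), Snd1 (0.284), Stx8 (0.294), Atrnl1 (0.327) and Sfxn5 (0.334), and the median over all genes was 0.535. Tpd52l1, of the tumor protein D52 family, read 7.45, 7.25, 7.05 and 7.23 on the control ASO arrays and 5.13, 5.76, 5.43 and 5.40 on the ACAT2 ASO arrays. Its lowest array was ACAT2 ASO 1, the array on which Exoc4 was highest. Snd1 read 6.94, 6.61, 6.47 and 6.49 after ACAT2 ASO, with ACAT2 ASO 1 highest as for Exoc4. Stx8, a SNARE gene of endosomes, read 7.04, 7.13, 6.74 and 6.76 and Atrnl1 6.74, 6.80, 6.31 and 6.39, each lowest on arrays 3 and 4. Sfxn5 read 5.54, 5.92, 5.97 and 5.57, lowest on array 1. These genes were picked for this likeness, and their values here are a description. Among the partners Exoc7 was the closest, at 0.469 and rank 394, then Exoc2 at 0.487 and rank 1103, while Exoc1, Exoc3, Exoc6, Exoc8 and Exoc5 lay between 0.531 and 0.562, at ranks 7743 to 12782. The ranks of the partners thus partly restate their changes after ACAT2 ASO and are a description.

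The paralogs of the subunits can enter related assemblies, and 4 of 5 were measured. After ACAT2 ASO Exoc6b, the close relative of Exoc6, differed by 0.19 ± 0.07 (SE, limma adjusted p = 0.285), Exoc3l4 by -0.33 ± 0.19 (limma adjusted p = 0.499), Tnfaip2 by -0.32 ± 0.31 and Exoc3l2 by -0.02 ± 0.07. In transgenic liver Exoc3l2 had the largest difference, -0.26 ± 0.06 (SE, limma adjusted p = 0.108). Limma called 0 of the 4 in either comparison, with 1 at an unadjusted p under 0.05 in each.

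The GTPases and regulators that act on the exocyst were also without a call. Of 25 listed, 23 were measured, and limma called 0 in transgenic liver, with 6 at an unadjusted p under 0.05, and 0 after ACAT2 ASO, with 2. Over all 17097 genes 1859 and 2276 were at such an unadjusted p. The 23 measured genes had a median change of -0.02 and 0.05. Rala, the Ral GTPase bound by Exoc2 and Exoc8, differed by 0.16 ± 0.06 in transgenic liver (SE, limma adjusted p = 0.373) and by 0.13 ± 0.07 after ACAT2 ASO (limma adjusted p = 0.477), and Ralb by -0.15 ± 0.07 and 0.03 ± 0.08. Ralgps2, an exchange factor for Ral, had the largest difference after ACAT2 ASO, 0.55 ± 0.13 from 6.92 ± 0.19 to 7.47 ± 0.12 (SD, n = 4, limma adjusted p = 0.0587). Rhoj had the largest in transgenic liver, 0.29 ± 0.24 (limma adjusted p = 0.734).

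Among genes of vesicle fusion 1 was called in each comparison. Of 16 measured genes of fusion at the plasma membrane, limma called Unc13b, a vesicle priming gene whose fold is related to that of tethers, from 4.63 ± 0.18 to 5.22 ± 0.07 in transgenic liver (SD, n = 5), a rise of 0.59 ± 0.09 (SE, limma adjusted p = 0.00731). After ACAT2 ASO Unc13b differed by 0.01, and the largest difference of that list was that of Stx3, a syntaxin gene, 0.50 ± 0.25 (limma adjusted p = 0.414). The dimmer probe set of Unc13b did not move with the other, and with the mean of both the call ended, at 0.28. Of 9 endosomal SNAREs limma called Stx8 after ACAT2 ASO, at -1.07 ± 0.09 from control on the log2 scale (SE, limma adjusted p = 4.26e-06), while the other 8 lay between -0.09 and 0.04. Stx8 is also among the genes picked above for likeness to Exoc4, so its call is not independent of that choice. In transgenic liver Stx8 differed by 0.14 ± 0.08 (limma adjusted p = 0.544).

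Limma called 0 of 35 measured genes listed under other tethering complexes in either comparison. At an unadjusted p under 0.05 there were 4 in transgenic liver and 8 after ACAT2 ASO. These complexes hold the place of the exocyst on other membranes: COG at the Golgi, GARP and EARP at Golgi and endosomes, NRZ at the endoplasmic reticulum, HOPS and CORVET at endosomes and lysosomes, and TRAPP early in secretion. All 8 COG genes lay below 0 after ACAT2 ASO, with a median of -0.05 and the largest difference in Cog1, -0.29 ± 0.09 (SE, limma adjusted p = 0.16). In transgenic liver 6 of the 8 lay above 0, with Cog7 at 0.33 ± 0.08 (limma adjusted p = 0.0926). Vps53 of GARP differed by -0.23 ± 0.06 after ACAT2 ASO (limma adjusted p = 0.068), Trappc6a by -0.34 ± 0.10 (limma adjusted p = 0.123) and Rint1 by 0.17 ± 0.08 (limma adjusted p = 0.369). Vps33b and Vps33a, both listed here under HOPS and CORVET, differed by 0.23 ± 0.09 and 0.20 ± 0.09 (limma adjusted p = 0.249 and 0.311). Whether Vps33b belongs to these complexes was not examined. In transgenic liver the largest difference within its own list was 0.24 ± 0.09 for Trappc9 of TRAPP, 0.19 ± 0.07 for Zw10 of NRZ, 0.18 ± 0.07 for Tgfbrap1 of HOPS and CORVET and 0.10 ± 0.07 for Vps50 of GARP and EARP (SE, limma adjusted p between 0.306 and 0.678). Over all 9 lists 87 genes were measured of 100 listed symbols, among which Vps50 and Stxbp3 also stood under an alternative symbol. Of these genes limma called 1 in transgenic liver, with 12 at an unadjusted p under 0.05, and 1 after ACAT2 ASO, with 13. Over all 17097 genes limma called 39 and 102, with 1859 and 2276 at an unadjusted p under 0.05.

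RNA integrity and other cell types were set beside the Exoc4 values. Actb probe sets at the 3′ end read above those at the 5′ end by 1.05 ± 0.11 in the ACAT2 ASO group and by 1.05 ± 0.05 in its controls (SD, n = 4), with overlapping ranges. For Gapdh this difference was 0.13, 0.34, 0.11 and 0.17 on ACAT2 ASO arrays 1 to 4. On control ASO arrays 1 to 4 it was 0.13, 0.16, 0.17 and 0.21. All 6 Kupffer cell markers lay above 0 after ACAT2 ASO, with a median difference of 0.49 and 0 called by limma (1 at an unadjusted p under 0.05), and their mean ranged from 7.42 to 9.43 after ACAT2 ASO and from 7.46 to 8.99 after control ASO. ACAT2 ASO 1, with the highest Kupffer mean of the 4, had the highest Exoc4 level. On ACAT2 ASO arrays 1 to 4 the Kupffer means were 9.43, 8.37, 7.42 and 8.08, and Exoc4 read 6.06, 5.80, 5.38 and 5.09. ACAT2 ASO 2 was thus next highest on both, and arrays 3 and 4 stood in the reverse order. On control ASO arrays 1 to 4 the Kupffer means were 7.46, 7.52, 7.51 and 8.99, and Exoc4 read 7.30, 7.77, 7.21 and 7.41. Of 4 measured cholangiocyte markers 3 lay below 0, and their mean ranged from 4.32 to 4.40 after ACAT2 ASO and from 4.41 to 5.19 after control ASO, without overlap. Krt19, a keratin of bile duct cells, had the largest of these differences, -1.12 ± 0.37 (SE, limma adjusted p = 0.17), with control arrays between 4.30 and 6.85 and ACAT2 ASO arrays between 3.99 and 4.20. The part of these markers in the Exoc4 and Exoc7 differences was not tested.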

How the data were processed

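Liver RNA was profiled on 18 Affymetrix MG-430 PM arrays after 3′-IVT labelling of 250 ng of total RNA, per the labels' protocols. The deposited log2 values are RMA summaries made by the authors, per the submitters' processing notes, whose software version the sources do not state. Their range gave the log scale. Groups came from the sample titles. Array number limits precision. The p-values set a difference against the spread between samples within groups, estimated from all 18 arrays. That spread may be technical.

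After 104 control probe sets were left out, 45037 remained, and the platform annotation named 1 gene for 28898 of them. A gene was read from its probe set with the highest mean (17097 genes), without a filter on low values, and every probe set was also fitted by itself. Limma 3.58.1 (R 4.3.3; lmFit, eBayes, a mean per group, all arrays) gave two-sided p-values with Benjamini-Hochberg adjustment over all genes or probe sets, called under 0.05, and 95% intervals. The code was tested on simulated data. Members, lists and tests were chosen with earlier results of these data known. The naming rule took all members, list genes called or with the largest change, 3 neighbours a side and the 5 genes most like Exoc4. Rala, Ralb and the remaining paralogs were added after their values were seen. Figures used matplotlib 3.10.9.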

Additional observations from a re-analysis of the deposited data

Results flagged for a closer look

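Of 64 groups of arrays, 4 groups for each of 16 probe sets, 3 held an array far from the others of its group, where chance alone gives about 1 in 20. Exoc2 read 6.38 on control ASO 4, above 6.12 to 6.16 on the other control arrays. Exoc3 read 5.86 on control ASO 3, below 6.15 to 6.20 on the others. The Exoc6 probe set 1424230_PM_at read 6.61 on transgenic 3, above 6.42 to 6.45 on the others. None of the Exoc4 or Exoc7 groups held such an array.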

How the results depend on the processing

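The Exoc4 change after ACAT2 ASO, given as a description, lay between -2.00 and -0.98 over the 10 alternative settings and between -2.00 and -1.67 without single arrays. The smallest value came with the mean of its 5 probe sets, where Exoc4 minus partners was -0.91 and not -1.78, and without single arrays that difference lay between -1.91 and -1.63 (transgenic: -0.16 to -0.0032). The count of 2 called exocyst genes after ACAT2 ASO was 1, Exoc7 being lost, with quantile normalization within each model, the arrays of the comparison alone, a trended and robust variance, the replicate block or the 3 arrays that stand apart left out (chosen after seeing the data), and ranged from 1 to 2 without single arrays. Exoc7 stayed between -0.33 and -0.29 in these settings. In transgenic liver no setting gave a called exocyst gene or probe set. Differences near 0 changed sign when a gene's probe sets were averaged, to 0.026 for Exoc1, 0.0395 for Exoc4 and 0.0226 for Exoc6, and that of Exoc1 was 0.0499 without the 3 arrays that stand apart. Without single arrays Exoc4 lay between -0.0858 and 0.0391, turning without wild type 4, and Exoc1 between -0.0632 and 0.0499, turning without wild type 2 or transgenic 1. The cause was not tested beyond the fewer samples of some fits. Called exocyst probe sets after ACAT2 ASO numbered 3 to 4.

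Over all genes the calls after ACAT2 ASO numbered 102, and 17 with the arrays of the comparison alone, 18 with the replicate block, 465 with array weights, 219 with every probe set, 46 without the arrays that stand apart and 42 to 203 without single arrays. In transgenic liver 39 became 13 with its own arrays alone, 2 with the replicate block, 78 with every probe set and 20 to 58 without single arrays. The labels' replicate numbers were not taken as pairs, since deviations of same-numbered arrays correlated between -0.48 and 0.17 in the transgenic and between -0.48 and 0.47 in the ASO model. Under the replicate block the Exoc4 change was -1.84, and the call of Unc13b ended (limma adjusted p = 0.0758, between 0.00531 and 0.0758 over its 10 alternative settings), as it did with the mean of its probe sets (0.28). That of Stx8 held in all settings.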
